A study of Homo sapiens with 2 samples.

Results

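The peaks described here lie on chromosomes 4 and 13, and were taken from the list that the authors deposited by chromosome name alone. Chromosome 4 carried 449 peaks and chromosome 13 carried 466, so that 915 of the 10342 peaks in the list (8.85%) were included. The list came from chromatin immunoprecipitation and sequencing (ChIP-seq) of wild-type cells of MDA-MB-231, a long-established breast cancer line of human origin in which the study describes brachyury as constitutively overexpressed. The methods name an antibody raised against brachyury, and 1 immunoprecipitated library was set against 1 library of input DNA prepared with no antibody. The label of the immunoprecipitated library names only the cell line, and its role was read from the name of the list. The study also sequenced RNA of MDA-MB-231 cells with brachyury knocked down, which was not used here. Neither ChIP-seq library was replicated, no ChIP-seq of cells lacking brachyury is described, and the read depth is unknown. For this reason no spread between replicates exists, and the values below are descriptions of 1 list with intervals that cover counting error only.

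Brachyury is a T-box transcription factor that binds DNA directly and directs the formation of posterior mesoderm and notochord in the embryo. In carcinoma cells it is known for its link to epithelial-mesenchymal transition, and the study asked how it bears on the cell cycle. Chromosomes 4 and 13 are both long known as gene-poor chromosomes, rich in late-replicating DNA with wide deserts between genes. Chromosome 13 is acrocentric, meaning that its centromere lies near one end and that its short arm consists of repeated DNA, mostly ribosomal RNA genes and satellites, that is not part of the assembled sequence. Chromosome 13 also carries RB1, the retinoblastoma tumor suppressor gene, whose product holds back E2F transcription factors and so the passage from G1 into S phase.

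The label "gene-poor" was first checked against the RefSeq annotation. RefSeq on GRCh38.p14 places 338 protein-coding genes on chromosome 13 and 770 on chromosome 4, which amounts to 3.56 and 4.03 coding genes per Mb of the span covered by peaks. Among the 22 autosomes, chromosome 13 had the lowest and chromosome 4 the third lowest value, with chromosome 18 between them at 3.71 per Mb. The other 20 autosomes ranged from 3.71 to 24.9 coding genes per Mb with a median of 6.59. The label therefore held for both chromosomes. The peaks are in hg19 positions, so no coordinate of a gene was taken from GRCh38.p14 to place a peak.

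Although alike in gene density, the chromosomes stood far apart in the density of peaks. Chromosome 13 carried 4.91 peaks per Mb (exact Poisson 95% interval 4.48 to 5.38) over a span of 94.8 Mb. Chromosome 4 carried 2.35 peaks per Mb (2.14 to 2.58) over 190.9 Mb. The ratio between them was 2.09 (exact conditional 95% interval 1.83 to 2.38). The pair had been chosen with this difference known, so it is given without a test. In the order of the 22 autosomes, chromosome 13 was the second densest and chromosome 4 the fourth sparsest. The remaining 20 autosomes ranged from 1.99 peaks per Mb on chromosome 22 to 5.07 on chromosome 3, with a median of 3.60.

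Set against genes, chromosome 13 had 1.38 peaks for each coding gene, the highest value of the 22 autosomes, and chromosome 4 had 0.583. The other 20 ranged from 0.105 on chromosome 19 to 0.980 on chromosome 5. Chromosome 18, which is as gene-poor as the pair, carried 2.21 peaks per Mb and thus lay near chromosome 4. Across the 22 autosomes the Spearman's rho of coding genes per Mb with peaks per Mb was -0.19, a description of points that share both libraries and whose spans enter both measures.

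**Figure D1:**
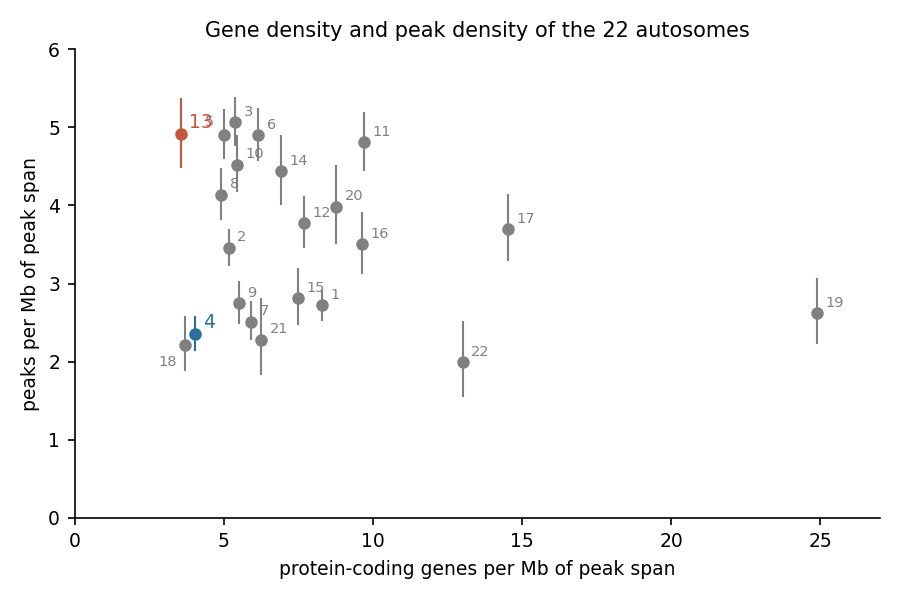
Protein-coding genes per Mb (x axis) and peaks per Mb (y axis) of the 22 autosomes, both over the span from first to last peak; bars are exact Poisson 95% intervals. Chromosomes 13 (4.91 peaks per Mb) and 4 (2.35 peaks per Mb) both lie at the gene-poor left edge, at the top and near the bottom of the range of peak density.

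To see whether the difference belonged to a certain kind of peak, the densities were compared in classes of score and width. The score is the one given by the peak caller, taken to be -10 times the log10 of its p-value, with a limit of 50 set by the calling. Chromosome 13 was denser in each class. The classes are parts of the total for which the pair was chosen, so this direction largely restates that difference and is not separate evidence of it. In peaks scoring 50 to under 55 the ratio was 2.34 (1.84 to 2.97), from 152 peaks on chromosome 13 and 131 on chromosome 4. It was 2.15 (1.63 to 2.84) from 55 to under 60 and 1.74 (1.34 to 2.27) from 60 to under 70. From 70 to under 100 it was 2.09 (1.51 to 2.91). In peaks of at least 100 it was 2.52, with a wide interval of 1.10 to 5.89 because only 15 and 12 peaks reached that score. The 5 intervals overlapped one another, so no order among the classes of score can be read from them.

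Across classes of width the ratio was 1.66 (1.08 to 2.54) in peaks narrower than 700 bp, 1.85 (1.47 to 2.33) from 700 to under 900 bp, 2.20 (1.78 to 2.71) from 900 to under 1100 bp and 2.77 (1.97 to 3.92) in peaks of 1100 bp or more. The values stood in the order of width, but their intervals overlapped as well. In the narrowest class there were 43 peaks on chromosome 13 and 52 on chromosome 4, and in the widest class 84 and 61.

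**Figure D2:**
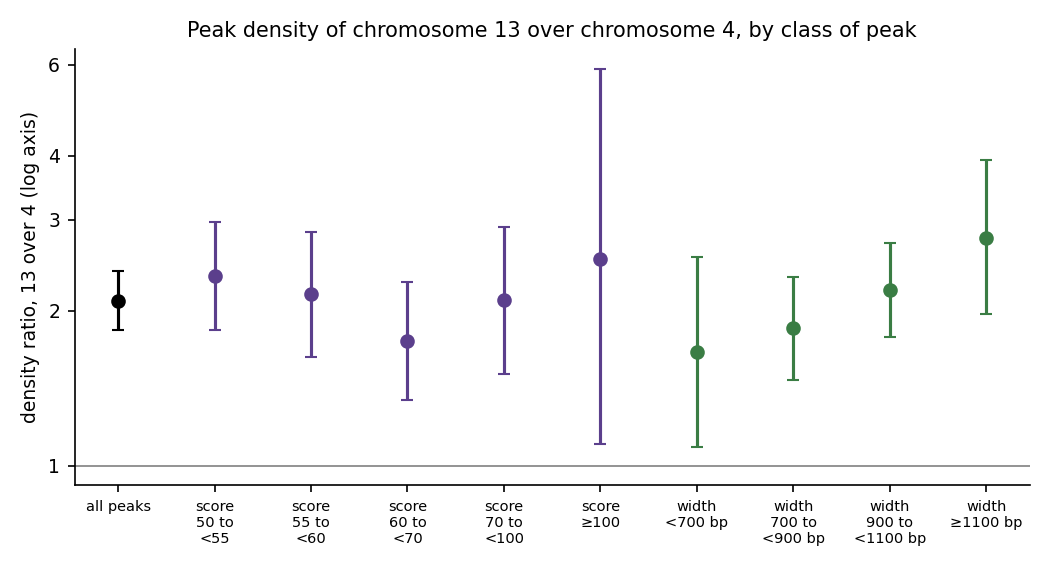
Ratio of peak density on chromosome 13 to that on chromosome 4 (y axis, log scale) for all peaks and for classes of score and width; bars are exact conditional 95% intervals and the grey line marks equal density. Every class lies above the line, from 1.66 in peaks narrower than 700 bp to 2.77 in peaks of 1100 bp or more. The classes are parts of the total for which the pair was chosen, so their shared direction is not separate evidence.

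Peaks were next counted in whole windows of 5 Mb. Counts per window follow the density for which the pair was chosen, so they restate that difference and are not separate evidence of it. The 37 windows of chromosome 4 held 2 to 24 peaks with a median of 10, and the 18 windows of chromosome 13 held 13 to 34 with a median of 25.5. The ranges overlapped between 13 and 24 peaks. In 93.7% of the 666 pairs made of 1 window from each chromosome, the window of chromosome 13 held more peaks, and in 0.601% both held the same number. No window of chromosome 4 exceeded the median of chromosome 13, while 9 windows of chromosome 13 exceeded the fullest window of chromosome 4. In 23 windows of chromosome 4 there were fewer peaks than in the emptiest window of chromosome 13.

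On chromosome 4 the fullest window lay from 70 to 75 Mb and held 24 peaks, with scores of 50.5 to 112 and a median of 61.9. It was followed by the window from 55 to 60 Mb with 20 peaks, and by those from 40 to 45 Mb, from 85 to 90 Mb and from 100 to 105 Mb with 19 each. The emptiest window, from 165 to 170 Mb, held 2 peaks, scoring 61.1 and 80.1. On chromosome 13 the fullest window also lay from 70 to 75 Mb, with 34 peaks, scores of 51.3 to 109 and a median of 57.0. The windows from 60 to 65 Mb and from 90 to 95 Mb held 32 and 31 peaks. The emptiest window of chromosome 13, from 20 to 25 Mb, was the first whole window behind the centromere and held 13 peaks.

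The chromosomes also differed in where along their length the peaks lay. On chromosome 4 the peaks were sparser behind about 105 Mb on the long arm, without a steady fall towards its end. Its median peak lay at 75.3 Mb, after 39.4% of the span, and the first 75% of the peaks were reached at 117.3 Mb, after 61.4% of the span. When the span was divided into 4 equal parts, the first held 133 peaks (2.79 per Mb, 95% interval 2.33 to 3.30), the second 151 (3.16 per Mb, 2.68 to 3.71), the third 85 (1.78 per Mb, 1.42 to 2.20) and the last 80 (1.68 per Mb, 1.33 to 2.09). The first 2 parts together carried 1.72 times the density of the last 2 (1.42 to 2.1). The 20 windows of 5 Mb that start before 105 Mb held 10 to 24 peaks with a median of 15, against 2 to 16 with a median of 8 in the 17 windows behind, of which only the window from 150 to 155 Mb exceeded 10. The limit of 105 Mb was chosen after the counts had been seen.

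On chromosome 13 the peaks were sparser next to the centromere and dense from there on. Its median peak lay at 70.2 Mb, after 53.5% of the span. The first of 4 equal parts held 84 peaks (3.54 per Mb, 2.83 to 4.39), and the other three held 128, 130 and 124 (5.40, 5.48 and 5.23 per Mb). The 3 windows from 20 to 35 Mb held 13, 16 and 14 peaks, and the 15 windows behind 35 Mb held 21 to 34. That limit was again chosen after the counts had been seen. The sparsest of these parts of chromosome 13 had 1.12 times the density of the densest part of chromosome 4 (0.847 to 1.47). Both parts were picked as extremes after the counts had been seen. The interval does not allow for that choice, so nothing is concluded from its including 1.

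**Figure D3:**
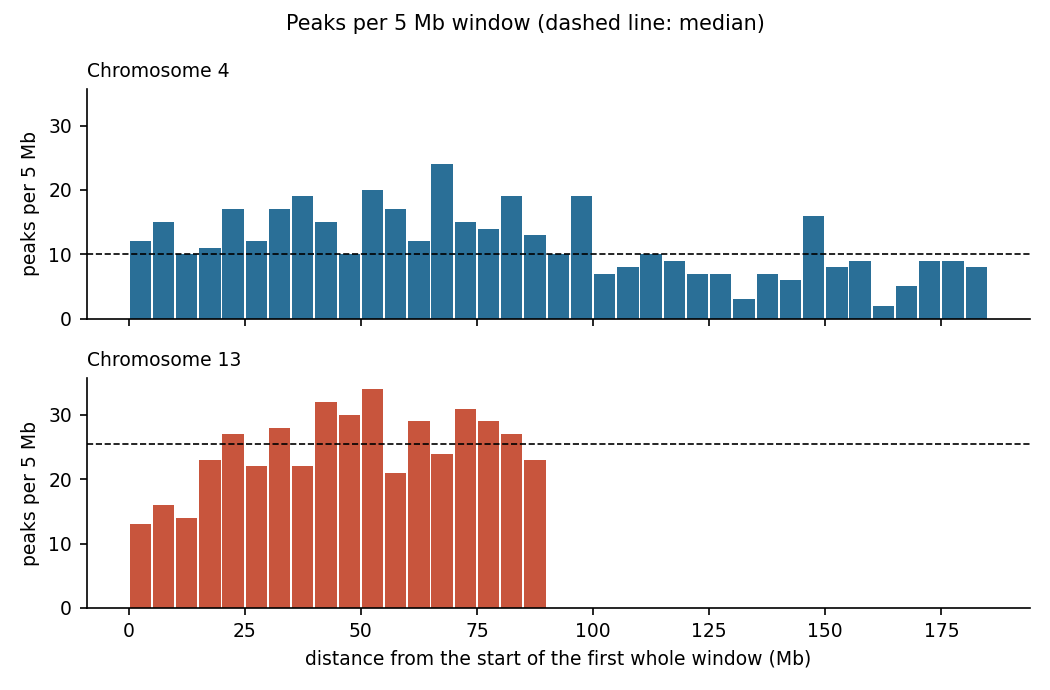
Peaks in each whole 5 Mb window (bars, y axis) by distance from the start of the first whole window in Mb (x axis), on chromosome 4 (top, 37 windows) and chromosome 13 (bottom, 18 windows); dashed lines mark the medians of 10 and 25.5. Counts fall to 2 to 16 in the last 17 windows of chromosome 4, and start at 13 to 16 in the first 3 windows of chromosome 13.

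Variation between windows depended on their size. In 5 Mb windows the variance to mean ratio was 2.24 on chromosome 4 and 1.49 on chromosome 13, where randomly scattered peaks of constant density would give a value close to 1. In 1 Mb windows the ratios were 1.18 and 1.20, so the order of the chromosomes was not kept. In the peaks at or above the median score of the list they were 1.49 and 1.67 in 5 Mb windows, and the order was again turned.

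In windows of 1 Mb chromosome 4 had more empty windows and fewer full ones, as a lower density by itself would give. Of 190 windows on chromosome 4, 29 held no peak (15.3%, Wilson 95% interval 10.8 to 21.1), in 20 runs of at most 3 windows. Of 94 windows on chromosome 13, only 1 was empty (1.06%, 0.188 to 5.78), the window from 33 to 34 Mb. The commonest count was 2 peaks on chromosome 4 (53 windows) and 4 peaks on chromosome 13 (18 windows). At least 5 peaks were found in 22 windows of chromosome 4 (11.6%) and in 47 of chromosome 13 (50%). The fullest 1 Mb window of chromosome 4, from 102 to 103 Mb, held 7 peaks. On chromosome 13 the window from 63 to 64 Mb held 12, with scores from 51.0 to 88.1, and 13 windows held more than the fullest window of chromosome 4. The windows overlapped widely in their counts. Chromosome 13 held more peaks in 75.5% of the 17860 pairs of 1 Mb windows, and in 9.96% both held the same number.

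Gaps between neighbouring peaks were measured from the end of one peak to the start of the next. Like the window counts, their lengths carry the difference in density for which the pair was chosen. The median gap was 278 kb (95% interval from ordered values 242 to 315) on chromosome 4 and 132 kb (112 to 155) on chromosome 13, against 154 kb (149 to 159) on the other 20 autosomes pooled. The median was a like part of the mean gap on both, 0.654 on chromosome 4 and 0.651 on chromosome 13, a single measure that does not describe the whole distribution. The other autosomes ranged from 0.448 on chromosome 8 to 0.702 on chromosome 19. Gaps of over 1 Mb made up 39 of 448 gaps on chromosome 4 (8.71%, Wilson 95% interval 6.43 to 11.7) and 3 of 465 on chromosome 13 (0.645%, 0.220 to 1.88), the lowest share of the 22 autosomes. The other 20 autosomes pooled had 3.18%.

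The longest interval with no peak on chromosome 4 was 3.61 Mb, from 49129638 to 52740838, which holds the centromere. The next, from 137042068 to 140608471, measured 3.57 Mb and lay in the middle of the sparse part of the long arm. On chromosome 13 the longest was 1.48 Mb, from 32891774 to 34370415, and the next 1.16 Mb, from 19765704 to 20924363. The first peak of chromosome 13 lay from 19386057 to 19386854 and scored 55.04. No peak was listed on its short arm, which the assembled sequence leaves out.

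Close neighbours were counted next. Gaps under 10 kb made up 28 of 465 gaps on chromosome 13 (6.02%, 4.20 to 8.57) and 14 of 448 on chromosome 4 (3.12%, 1.87 to 5.18), with intervals that overlapped in part. The other 20 autosomes pooled had 5.14%, inside both intervals. With a limit of 20 kb the shares were 10.5% (8.06 to 13.7) and 4.69% (3.09 to 7.06), whose intervals did not overlap. Here the other 20 autosomes pooled had 9.14%, inside the interval of chromosome 13 and above that of chromosome 4. When the limit was set in each chromosome at 5% of its own mean gap, the shares were 6.02% (4.20 to 8.57) and 4.91% (3.27 to 7.32), and the intervals overlapped for most of their length. By this limit the other 20 autosomes ranged from 3.75 to 10% with a median of 5.93%. On chromosomes 4 and 13 the neighbours less than 10 kb apart all stood in pairs, as no run of 3 such peaks was found on either. The closest pair of chromosome 4, between 56554083 and 56556041, was separated by 311 bp and scored 52.62 and 69.82. That of chromosome 13, between 66591606 and 66594657, was separated by 718 bp and scored 56.09 and 59.04.

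**Figure D4:**
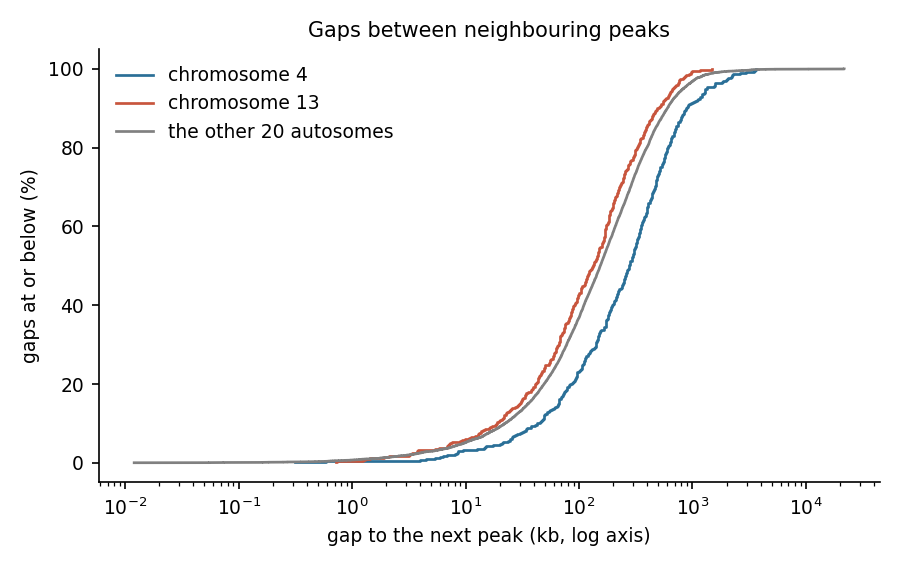
Cumulative share of gaps (y axis, percent) by length of the gap to the next peak (x axis, kb, log scale) on chromosome 4 (448 gaps), chromosome 13 (465 gaps) and the other 20 autosomes. The curve of chromosome 4 lies to the right of the others along most of its course (median 278 kb), and that of chromosome 13 lies slightly to the left (median 132 kb).

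Scores differed little between the chromosomes. The median was 59.7 (95% interval 58.1 to 61.0) on chromosome 4 and 58.9 (57.8 to 59.6) on chromosome 13, and the intervals overlapped. The quartiles were 53.9 and 67.4 on chromosome 4 and 53.6 and 67.3 on chromosome 13. The other 20 autosomes had medians of 57.6 to 60.3. Scores of 100 or more were given to 12 peaks of chromosome 4 (2.67%, Wilson 95% interval 1.54 to 4.61) and to 15 of chromosome 13 (3.22%, 1.96 to 5.24). On the other 20 autosomes pooled the share was 2.89%, which lay inside both intervals. In peaks of at least 700 bp the median was 58.1 on chromosome 4 and 58.3 on chromosome 13, in the opposite order.

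The 5 highest scores on chromosome 13 began with a peak from 108757942 to 108759689, which scored 230.44, was 1748 bp wide and ranked 3 in the whole list. The second lay from 65913766 to 65914874 with a score of 139.43, and the third from 26894412 to 26895174 with a score of 122.33. The remaining peaks lay from 100628656 to 100629129 and from 101331058 to 101331524, were 474 and 467 bp wide, and shared the score of 121.24. This score was given to 12 peaks in the whole list. The first of the 5 thus stood far above the others, which followed each other closely.

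Chromosome 4 had no peak of that rank. Its highest score was 130.56, in a peak of 556 bp from 116551791 to 116552346, which ranked 31 in the list. This score was given to 5 peaks in the whole list. The second, from 141763239 to 141763749, scored 121.24 as well and was 511 bp wide. The third, from 57680425 to 57681423, scored 116.27. The fourth, from 72425239 to 72425776, scored 112.11 with a width of 538 bp, a score given to 11 peaks in the whole list. The fifth, from 49060787 to 49061959, scored 111.37, which 2 peaks of the list share. It lay 66.1 kb before the next peak at the edge of the centromere. Of the 5 highest peaks, 3 on chromosome 4 and 2 on chromosome 13 were narrower than 700 bp.

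Widths were compared with those of the other autosomes. The median width was 917 bp (884 to 942) on chromosome 4, the lowest of the 22 autosomes, and 946 bp (933 to 961) on chromosome 13, which ranked 8 from the lowest. The intervals of the pair overlapped. The other 20 autosomes ranged from 919 bp on chromosome 21 to 1059 bp on chromosome 8 with a median of 956 bp, and pooled they had a median of 963 bp (959 to 968). Peaks of at least 1500 bp numbered 7 on chromosome 4 (1.56%, 0.757 to 3.18) and 9 on chromosome 13 (1.93%, 1.02 to 3.63), against 5.61% (5.16 to 6.10) on the other 20 pooled. That share varied widely among these, from 1.35% on chromosome 17 to 21.7% on chromosome 22, with a median of 3.34%, so the pair lay near the low end but not outside the range. The widest peak of chromosome 4, 1948 bp from 190672456 to 190674403, scored 52.22. The widest of chromosome 13, 1922 bp from 51191718 to 51193639, scored 115.68.

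Peaks narrower than 700 bp made up 11.6% on chromosome 4 (52 of 449, 8.94 to 14.9), the highest share of the 22 autosomes, and 9.23% on chromosome 13 (43 of 466, 6.92 to 12.2), the fourth highest. The other 20 ranged from 4.6 to 10.3% and had 7.62% pooled (7.09 to 8.17). On chromosome 4 the share changed little along the span, from 10 to 12.9% in the 4 equal parts. On chromosome 13 it was 7.14% and 5.47% in the first and second part and 10.8% and 12.9% in the third and the last, with wide intervals from 2.67 to 19.9%. Narrow peaks scored higher than wider ones on both chromosomes, with a median of 69.8 (68.1 to 77.8) against 58.1 (57.3 to 59.6) on chromosome 4, and of 69.2 (62.1 to 69.8) against 58.3 (57.2 to 59.1) on chromosome 13. The same order held on the other 20 autosomes, with 69.82 against 58.06. Scores did not fall steadily with width. The medians were 58.07 and 57.35 from 900 to under 1100 bp on chromosomes 4 and 13, and 62.24 and 62.35 at 1100 bp or more.

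A part of the narrow peaks carried scores that recur in the list. In the list as a whole, 6 scores of at least 60 were given to 20 or more peaks each, namely 62.13, 69.82, 77.79, 86.02, 94.49 and 103.19. Chromosome 4 held 28 peaks with one of these scores (6.24%, Wilson 95% interval 4.35 to 8.87), the highest share of the 22 autosomes, and chromosome 13 held 14 (3.0%, 1.80 to 4.98). The other 20 ranged from 0.333% on chromosome 8 to 5.17% on chromosome 15. All 42 of these peaks on the pair were narrower than 700 bp, where they made up 53.8% of the narrow peaks of chromosome 4 and 32.6% of those of chromosome 13, against 33.9% on the other 20 autosomes. The score 69.82 alone was found in 9 peaks of chromosome 4 and in 6 of chromosome 13. The sparser chromosome of the pair thus had both the higher share and the higher number of peaks with recurring scores, 28 against 14. These counts depend on the limit of 20 peaks. They leave out the scores 112.11, 121.24 and 130.56 met above, which 11, 12 and 5 peaks of the list share. The ratio of densities without the peaks of recurring scores was not computed.

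The surroundings of RB1 were examined last. The gene was placed on chromosome 13 from 48.878 to 49.056 Mb in hg19, a length of 178 kb given to the nearest kb. In RefSeq its nearest neighbours among coding genes are MED4 and ITM2B on the side before it and RCBTB2 on the other, while LPAR6, a receptor for lysophosphatidic acid, lies within it. MED4 is a subunit of the Mediator complex, which links transcription factors to RNA polymerase. Peaks were not assigned to these neighbours, as an annotation in hg19 was not used here.

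A single peak lay inside RB1, from 49031148 to 49031988, and it was an ordinary one. Its score of 59.36 was close to the median of the chromosome, and its width was 841 bp. Its midpoint lay 86.3% of the way through the interval. Whether it falls in an exon or an intron was not analysed here. With the density of chromosome 13 as a whole, 0.875 peaks would fall in an interval of this length, so that 1 peak is what its length alone would give. The nearest peak before RB1 lay from 48860745 to 48861504 and scored 57.44, and 16.5 kb separated it from the interval. The nearest behind RB1 lay from 49354277 to 49355292, scored 62.57 and was 298 kb away. At the edge of the interval where coordinates begin, from which RB1 is transcribed, no peak was listed.

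Within 2 Mb on either side there were 26 peaks in 4.18 Mb, or 6.22 per Mb (exact Poisson 95% interval 4.07 to 9.12). The interval included the 4.91 per Mb of the whole chromosome, at which 20.5 peaks would be found. In 21 other stretches of the same length laid end to end along chromosome 13, the number ran from 10 to 31 with a median of 20. More than 26 peaks were found in 2 of these, the same number in 1, and fewer in 18. The RB1 region was therefore among the fuller parts of chromosome 13 but within its range. With 1 Mb on either side the density was 6.43 per Mb (3.51 to 10.8), and with 5 Mb it was 5.01 per Mb (3.73 to 6.59).

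Before RB1 there were 12 peaks, in 3 groups. The farthest group lay 1230 to 1414 kb away. It began with a peak from 47462574 to 47463673 scoring 58.39 and a peak from 47496832 to 47497541 scoring 62.15. A peak from 47572796 to 47573930 scored 69.11, and one from 47647295 to 47648344 scored 60.65. The second group, 741 to 885 kb away, was made of peaks from 47992399 to 47993365, from 48120683 to 48121626 and from 48135411 to 48136745, with scores of 52.15, 54.56 and 68.98. The scores of both groups were ordinary for the chromosome.

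The third group held the highest score of the region. Peaks from 48522237 to 48523306, from 48542065 to 48542845 and from 48551771 to 48552334 lay close together and scored 59.56, 59.44 and 85.27. The last of these was 564 bp wide and the only peak of the region narrower than 700 bp. A peak from 48713609 to 48714685, which scored 59.66, and the nearest peak given above completed the series.

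Behind RB1 there were 13 peaks, and the first 719 kb held only the nearest one. A peak from 49774820 to 49775995 then scored 54.18, one from 49807369 to 49808398 scored 61.77, and a close pair from 49991389 to 49992555 and from 49998621 to 49999568 scored 56.90 and 79.21. This pair was separated by 6.07 kb, the shortest gap of the region. The following peak, from 50131187 to 50132314, scored 53.50. Higher scores were found from 50346674 to 50347964 (72.73), from 50372937 to 50373974 (82.19) and from 50686479 to 50687661 (72.14). The series ended with peaks from 50805159 to 50806168, from 50877217 to 50878703 and from 50912161 to 50913003, which scored 54.63, 62.46 and 66.35, and with a peak from 51054769 to 51055616, which scored 52.09 and lay just inside the limit of 2 Mb. The next peak outside, from 51191718 to 51193639, was the widest of chromosome 13.

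The scores around RB1 were compared with those of the rest of the chromosome. The median of the 26 peaks was 60.2 (57.4 to 66.4), with extremes of 52.09 and 85.27, and none reached 100. The 21 other stretches had medians of 52.9 to 64.7. Of the 26 peaks, 17 scored at or above the median of the list (65.4%, Wilson 95% interval 46.2 to 80.6), against 218 of the other 440 peaks of chromosome 13 (49.5%, 44.9 to 54.2). Counting only such peaks, the density was 4.07 per Mb around RB1 (2.37 to 6.51) and 2.48 on chromosome 13 (2.18 to 2.82). The median gap in the region was 127 kb, close to that of the chromosome, and the longest was 420 kb.

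**Figure D5:**
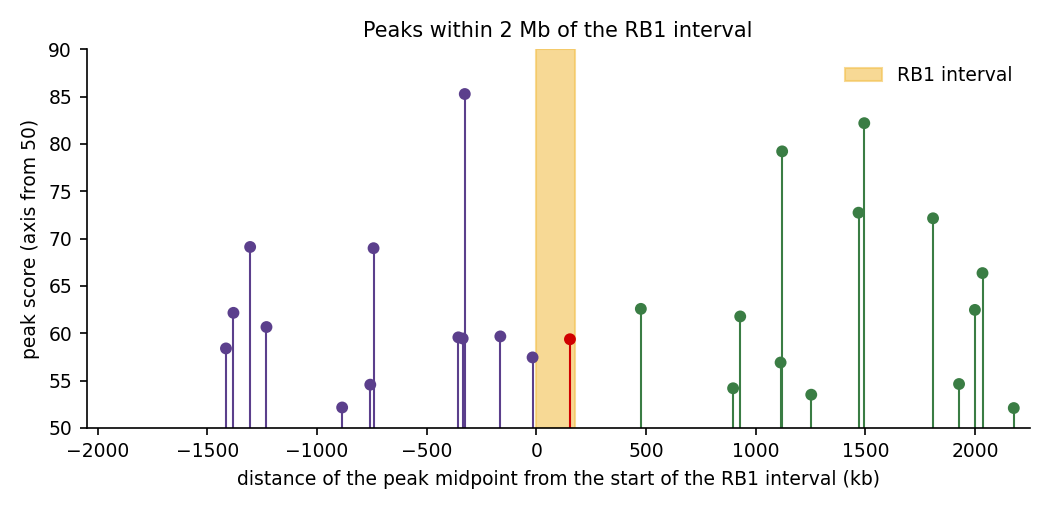
Score of each of the 26 peaks within 2 Mb of RB1 (y axis, from the calling limit of 50) by distance of the peak midpoint from the start of the RB1 interval in kb (x axis); the shaded band is RB1, and colors mark peaks before, inside and behind it. A single peak, scoring 59.36, lies in the band, and the highest score, 85.27, lies before it.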

How the data were processed

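The list was deposited by the authors as peak positions with a score per peak, made by MACS (from the peak names) in the immunoprecipitated library against input. Its name carries a p-value limit of 1e-05 and model fold limits of 10 and 30. The submitters' processing notes name Bowtie2 2.1.0 and hg19, and 6 peaks on chromosome 4 lay past the last RefSeq gene of GRCh38.p14, so positions were read as hg19 and printed with 1 added to each start. The version of MACS and the handling of duplicate reads are not given in the sources used here. The series' design text, on pericardial RNA, was set aside.

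Width was end minus start as deposited, position the midpoint, and span the distance from first to last peak. Windows were counted from the start of each chromosome, and only whole windows between the first and last peak were kept. Intervals at 95% were exact Poisson (densities), exact conditional binomial (ratios), Wilson (shares) and from ordered values (medians). They include counting error alone and take peaks to be independent. The variance to mean ratios in 5 Mb windows, 2.24 on chromosome 4 and 1.49 on chromosome 13, exceeded 1. The intervals of density and of their ratio may therefore be too narrow. With 1 list and no replicates no test was run. The functions were tested on simulated lists.

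The chromosomes, classes and measures were chosen with earlier results of these data known, and the named items are the 5 highest peaks, the fullest and emptiest windows and the 2 longest gaps of each chromosome, with each peak within 2 Mb of RB1. The position of RB1 was supplied with this choice and was not derived from the list. Sequences under the peaks were not analysed here. The alternatives kept only peaks at or above the median score of the list (58.8), merged peaks under 1 kb apart, used spans without empty intervals of over 3 Mb, or changed the limits for width, gaps and the RB1 flank. Python 3.11.15, numpy 2.4.6, pandas 2.3.3, scipy 1.17.1 and matplotlib 3.10.9 were used.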

Additional observations from a re-analysis of the deposited data

How the results depend on the processing

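Of 52 values under alternatives, 35 stayed within the counting interval of the reported value (or within 1.5-fold where it has none) and 17 moved. The ratio of densities stayed between 1.94 and 2.09 under each alternative run. Keeping only peaks at or above the median score lowered numbers by construction: the densities to 1.25 and 2.48 per Mb on chromosomes 4 and 13, and the medians per 5 Mb window to 6 and 12.5. The shares of empty 1 Mb windows became 32.6 and 10.6%, the median gaps 468 and 253 kb, and the shares of peaks narrower than 700 bp 20.5 and 14.5%. The variance to mean ratio of chromosome 4 was 1.49 in these peaks and 1.18 in 1 Mb windows. With a limit of 600 bp the narrow shares were 3.79 and 2.58%. In peaks of at least 700 bp the median score of chromosome 4 was 58.1, and 1.01% of its peaks scored at least 100. With a limit of 20 kb, 10.5% of the gaps of chromosome 13 and 4.69% of those of chromosome 4 were short, and their intervals no longer overlapped. A limit in kb takes in more gaps where peaks are denser. At 5% of the mean gap of each chromosome the shares were 6.02% and 4.91%, with intervals that overlapped, so closer grouping on chromosome 13 cannot be read from the limit of 20 kb. Merging close neighbours moved no value. The other flanks around RB1 stayed within the interval of the main value, but that interval is wide (4.07 to 9.12 per Mb). With 5 Mb on either side the density fell from 6.22 to 5.01 per Mb, close to the 4.91 of chromosome 13. The fuller surroundings of RB1 were thus not kept at that flank.

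No paired analysis was possible because each library is single and the result is 1 list. The unknown depth and the missing replicate limit each score and each position.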
